A study of Rattus norvegicus with 6 samples.

Results

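A set of 6 rat genes of thyroid hormone action and transport was followed in liver RNA: Dio1, Thrb, Thra, Thrsp, Ttr and Serpina7. Members were the array probes, other than controls, whose RefSeq accession belongs to 1 of these 6 genes, whatever their signal. The rule found 8 of 61657 probes, and these covered 5 of the 6 genes: 3 probes of Dio1, 2 of Ttr and 1 each of Thrb, Thra and Thrsp. No probe carried a RefSeq accession of Serpina7, which codes for thyroxine-binding globulin, and that gene is not analysed here. Probes under other kinds of accession were not named, so a Serpina7 probe among them is possible. All 8 probes were well above background on 6 of 6 arrays, so all 8 passed the filter on dim probes, as did 39411 probes of the whole array. Probes were named through RefSeq for 15284 genes, of which 11434 were tested.

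The animals were male Sprague-Dawley rats of the Crl:CD(SD) stock, 5 weeks old when bought. By their labels, 3 rats received corn oil as vehicle. The other 3 received phenolphthalein, a compound formerly sold as a laxative, at 1000 mg/kg/day. All 6 were kept on the same basal diet, and 1 array stands for the liver of 1 rat. The labels give the length of treatment both as 28 days and as 9 weeks, and the route of dosing and the time of day or feeding state at sampling are not given in the sources used here. All corn oil arrays were on slide 1, scan 1, and all phenolphthalein arrays on slide 2, scan 2. An effect of slide or scan and one of phenolphthalein therefore cannot be told apart.

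Thyroid hormone reaches the liver mostly as thyroxine, a prohormone carried in plasma by binding proteins. Inside hepatocytes a selenium-containing deiodinase removes an iodine atom to give the active hormone, which binds nuclear receptors that raise or lower the transcription of target genes. The hormone is cleared by glucuronidation, sulfation and further deiodination, and drugs that induce liver enzymes are known to speed its clearance in rats.

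The comparison asked whether these transcripts differed between rats given phenolphthalein and rats given corn oil. On the same arrays 2 drug-metabolising enzymes, named for their large responses, were far higher with phenolphthalein. The P450 Cyp2b1 was 12.2-fold higher (95% interval 8.68 to 17.1), and Ugt2b1, a glucuronosyltransferase, was 6.46-fold higher (4.65 to 8.97). None of the 5 thyroid hormone genes passed an adjusted p of 0.05 in limma, and the smallest adjusted p among them was 0.587, for Ttr. Over all genes tested 0.0612% passed in either direction. At an unadjusted p under 0.05 the members also gave 0 calls, where 15.3% of all tested genes did. By probe, 0 of 8 member probes passed, against 0.0482% of all probes tested, and 0 of 8 had an unadjusted p under 0.05, against 13.2%. In whole liver RNA, fewer cells of a type and less RNA per cell cannot be told apart.

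The promoters of Thrsp and Dio1 are printed because these are the 2 members that thyroid hormone is known to raise in liver. Each window runs from 250 bases before to 50 bases after the start given by RefSeq on build GRCr8, and both genes lie on the minus strand. The window is chr1:161138915-161139214 for Thrsp and chr5:127319735-127320034 for Dio1, and each is written 5′ to 3′ along the gene.
Thrsp: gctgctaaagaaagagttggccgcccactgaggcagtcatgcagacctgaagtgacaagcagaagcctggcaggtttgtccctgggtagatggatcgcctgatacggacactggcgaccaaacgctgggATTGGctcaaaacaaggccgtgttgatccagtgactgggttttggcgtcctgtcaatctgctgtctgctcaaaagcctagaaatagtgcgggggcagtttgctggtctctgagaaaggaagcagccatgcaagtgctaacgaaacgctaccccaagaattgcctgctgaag
Dio1: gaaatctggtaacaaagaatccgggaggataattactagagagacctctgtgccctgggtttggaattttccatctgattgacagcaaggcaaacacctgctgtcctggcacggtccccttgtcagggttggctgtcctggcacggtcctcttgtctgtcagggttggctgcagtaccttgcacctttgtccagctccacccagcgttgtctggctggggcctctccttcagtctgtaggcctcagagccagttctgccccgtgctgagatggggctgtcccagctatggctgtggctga
Both windows were searched on both strands for AGGTCA, the half-site that thyroid hormone receptors bind, and for CCAAT, a common promoter element.  Capitals mark the 1 match, a CCAAT on the opposite strand of the Thrsp window, read as ATTGG from base -121 to base -117. Of 33469 such windows of all genes, 37.5% hold a CCAAT and 16.2% an AGGTCA. The letters of AGGTCA are in neither window. The arrays measure transcripts and not binding at these windows.

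Dio1, type 1 deiodinase, converts thyroxine to the active hormone in liver and is itself raised by thyroid hormone. Signals are given as log2 of the spot signal minus that of the array's 75th percentile. The brightest Dio1 probe read 4.14, 4.79 and 4.56 in corn oil replicates 1 to 3 and 4.59, 4.67 and 4.08 in phenolphthalein replicates 1 to 3. The groups overlapped, with corn oil replicate 1 and phenolphthalein replicate 3 the 2 lowest arrays. The log2 fold change was -0.05 ± 0.23 (SE, n = 3 per group), with a 95% interval of -0.61 to 0.50 and a limma adjusted p of 0.929. On the fold scale that interval runs from 0.657 to 1.42.

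The other Dio1 probes had the same 2 lowest arrays. The second probe, Dio1 probe 2, read 2.92, 3.53 and 3.34 in corn oil and 3.33, 3.46 and 2.79 with phenolphthalein. Dio1 probe 3 read 1.16, 1.72 and 1.52 in corn oil and 1.39, 1.65 and 0.82 with phenolphthalein. Corn oil replicate 2 was the highest and phenolphthalein replicate 3 the lowest array for each of the 3 probes. Their log2 fold changes were -0.07 ± 0.23 and -0.18 ± 0.25 (SE, n = 3 per group), with limma adjusted p of 0.919 and 0.785 over all probes. Measured as deviations from each probe's own mean, the first 2 probes differed by at most 0.05 log2 units on any array, and probes 1 and 3 by at most 0.17. The 3 probes share their RNA and label but lie on separate spots, in rows 81, 75 and 4 of the array. Pearson's r between them over the 6 arrays was 0.99, 0.95 and 0.97. The highest and lowest arrays lay 0.71, 0.74 and 0.90 log2 units apart on probes 1 to 3. Without phenolphthalein replicate 3 the log2 fold change of the brightest probe was 0.13, and without corn oil replicate 1 it was -0.23, the lowest value with 1 array left out.

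**Figure D1:**
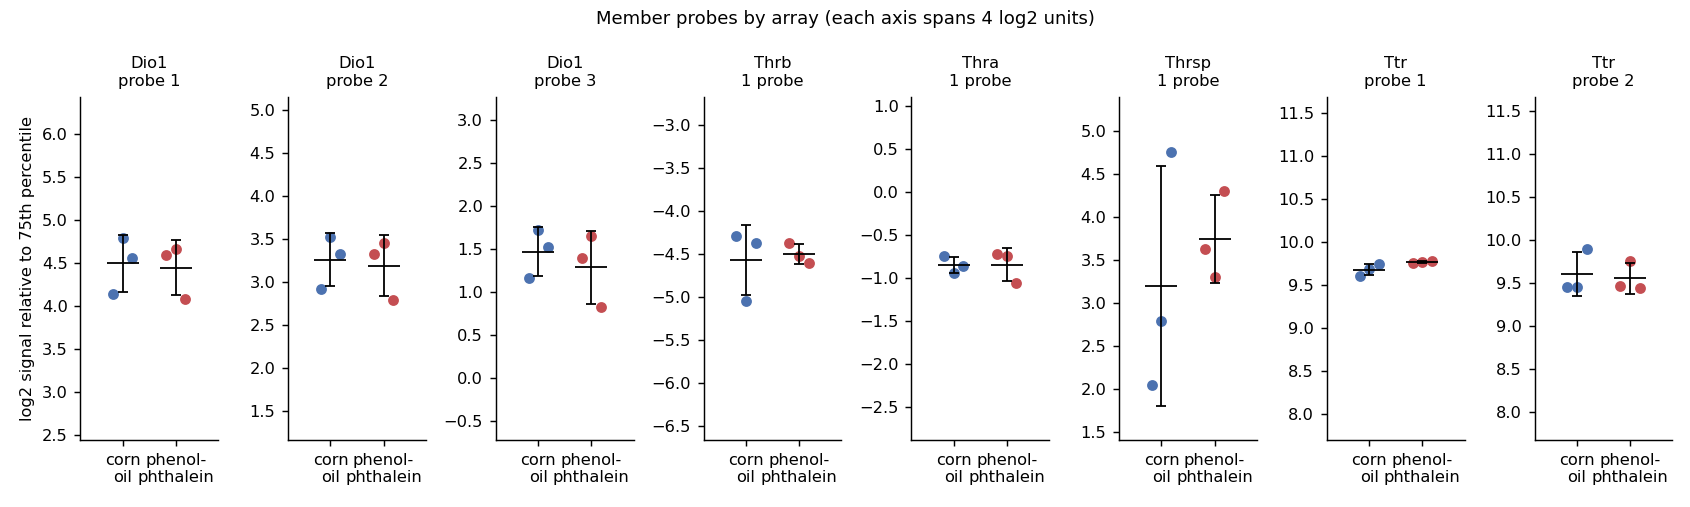
Log2 signal of each of the 8 member probes on the 3 corn oil arrays (blue) and the 3 phenolphthalein arrays (red), with the group mean and SD as black bars. Every vertical axis spans 4 log2 units, so distances within a panel, but not levels, can be compared between panels. Thrsp spreads most within corn oil, from 2.05 to 4.76, and Ttr probe 1 least.

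Thra and Thrb code for the 2 thyroid hormone receptors, and the beta receptor is known as the main one of liver. The Thrb probe was dim, at -4.30, -5.04 and -4.37 in corn oil and -4.37, -4.53 and -4.60 with phenolphthalein. On the 6 arrays the dimmest probe counted as well above background had a signal of -5.49 to -5.13, so Thrb was read close to that limit, and corn oil replicate 2 was its lowest array. The Thrb log2 fold change was 0.07 ± 0.21 (SE, n = 3 per group), with a 95% interval of -0.45 to 0.59 and a limma adjusted p of 0.9. Without corn oil replicate 2 it was -0.17.

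The Thra probe read -0.74, -0.94 and -0.86 in corn oil and -0.71, -0.75 and -1.06 with phenolphthalein, and all corn oil values lay inside the phenolphthalein range. Its log2 fold change was 0.004 ± 0.120 (SE, n = 3 per group), with a 95% interval of -0.29 to 0.30. On the fold scale that interval runs from 0.817 to 1.23, and the limma adjusted p was 0.991. Any effect of slide or scan is part of this difference. The within-group SD of Thra, 0.15 log2 units, was close to the median of all tested genes, 0.154.

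Thrsp codes for Spot 14, a small nuclear and cytosolic protein of lipid synthesis that was first found as a thyroid hormone-induced transcript of rat liver. Carbohydrate feeding is also known to raise it. The probe read 2.05, 2.79 and 4.76 in corn oil replicates 1 to 3 and 3.62, 3.30 and 4.31 in phenolphthalein replicates 1 to 3. All phenolphthalein values lay inside the corn oil range, whose ends were 6.54-fold apart. The phenolphthalein range was 2.01-fold. Thrsp had a log2 fold change of 0.55 ± 0.71 (SE, n = 3 per group), or 1.46-fold, with a 95% interval of 0.438 to 4.88-fold and a limma adjusted p of 0.745. Without corn oil replicate 1 the log2 fold change was -0.03, and without corn oil replicate 3 it was 1.33, with limma adjusted p of 0.321 to 0.990 over all alternatives.

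The within-group SD of Thrsp was 1.05 log2 units, and 1.46% of all tested genes had a larger one. For Dio1, with an SD of 0.32, the share was 17.4%, and for Thrb, at 0.30, it was 19.6%. The SD was smallest for Ttr, at 0.05, with 96.1% of tested genes above it. Among genes within 0.5 log2 units of the same mean signal, the share with a larger SD was 0.455% of 879 for Thrsp and 6.61% of 635 for Dio1. It was 52.9% of 1184 for Thra, 60.1% of 858 for Thrb and 69.7% of 33 for Ttr. Thrsp and Dio1 thus varied more between rats of a group than most genes of like signal, and the other 3 members did not.

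**Figure D2:**
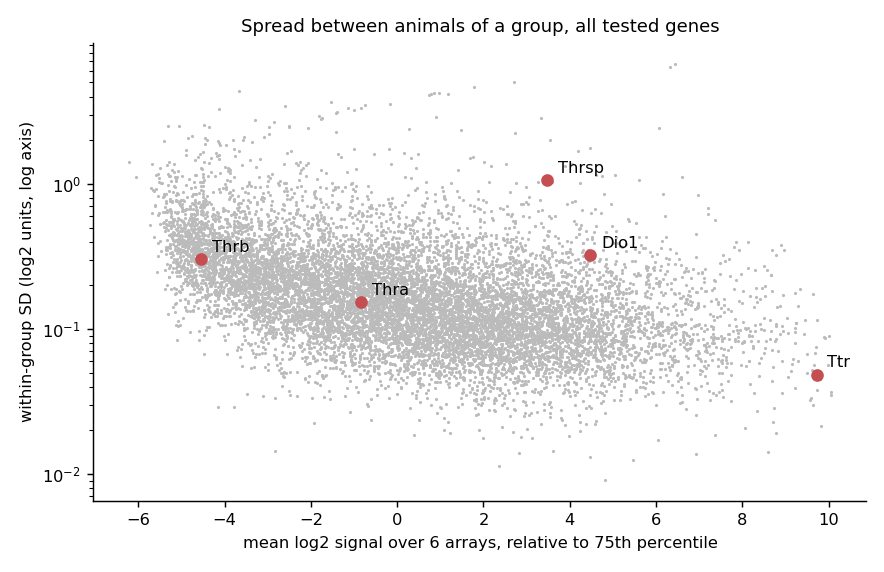
Within-group SD of log2 signal (vertical log axis) against mean log2 signal over the 6 arrays for every tested gene (grey points), with the 5 members in red. Thrsp, at an SD of 1.05, and Dio1, at 0.32, stand above most genes of like signal, Thra and Thrb lie inside the cloud, and Ttr is at its bright, low end.

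**Figure D3:**
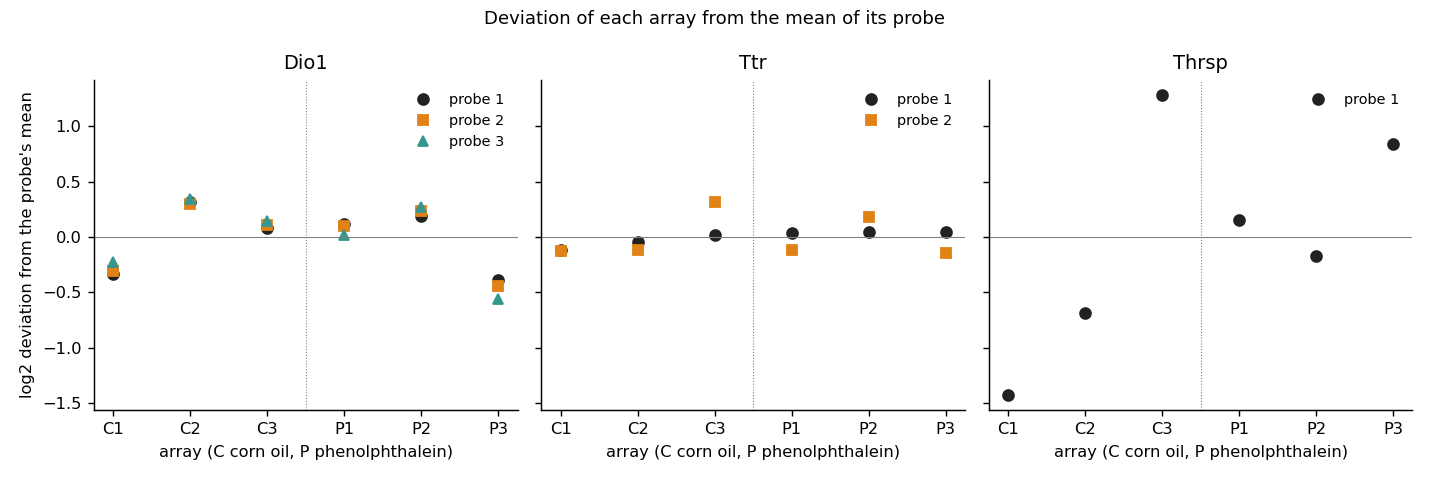
Log2 deviation of each array from the mean of its probe, for the 3 Dio1 probes, the 2 Ttr probes and the Thrsp probe, with corn oil arrays (C1 to C3) left and phenolphthalein arrays (P1 to P3) right of the dotted line. The Dio1 probes lie close together on each array, the Ttr probes part most on C3, and Thrsp runs from -1.42 on C1 to 1.29 on C3.

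Ttr codes for transthyretin, a plasma carrier of thyroxine and of retinol-binding protein that the liver secretes, and in rats it is a major thyroxine carrier. Its brightest probe read 9.60, 9.68 and 9.74 in corn oil and 9.75, 9.77 and 9.77 with phenolphthalein. On this scale the groups did not overlap, with the lowest phenolphthalein value just above the highest corn oil value. Of all tested genes, 23.2% had groups that do not overlap. Before the array's percentile was subtracted, the spot signals of this probe were 484492, 521315 and 508663 in corn oil. With phenolphthalein they were 499372, 490487 and 480878, so the groups overlapped, with the highest value in corn oil and the lowest with phenolphthalein. The separation was thus present after that subtraction and not before it. The log2 fold change was 0.09 ± 0.07 (SE, n = 3 per group), with a 95% interval of -0.09 to 0.27. With quantile normalization it was 0.01, and with a median shift 0.17, where the limma adjusted p was 0.253, the lowest of any member in any setting. The second Ttr probe read 9.45, 9.46 and 9.90 in corn oil and 9.46, 9.76 and 9.44 with phenolphthalein, where the groups overlapped. Its log2 fold change was -0.05 ± 0.16 (SE, n = 3 per group), with a limma adjusted p of 0.919, so the 2 Ttr probes gave opposite signs. Their deviations parted by up to 0.30 log2 units, on corn oil replicate 3, and Pearson's r between them was 0.37 over the 6 arrays, against at least 0.95 for the Dio1 probes. No spot was saturated, but only 13 to 37 of the 61657 probes, the Ttr probe itself included, were as bright as it or brighter on an array.

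**Figure D4:**
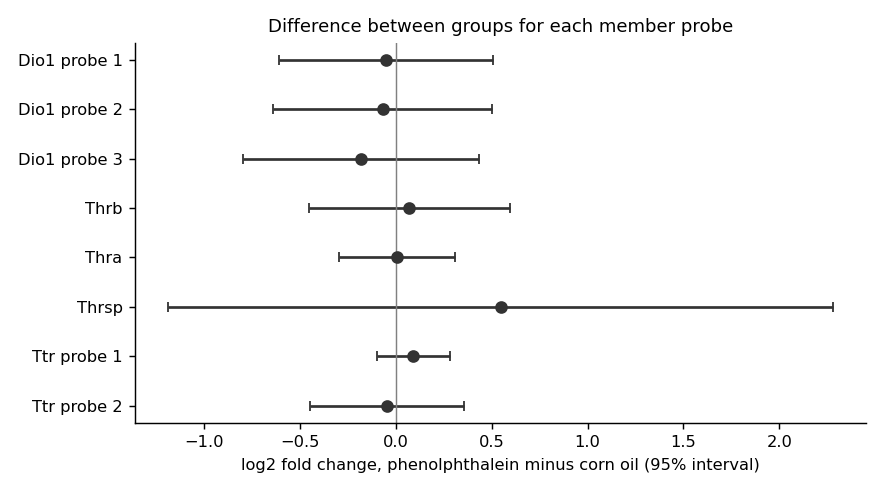
Log2 fold change, phenolphthalein minus corn oil, of each member probe, with the 95% interval of the limma fit over all probes. Every interval crosses 0. The widest is that of Thrsp, from -1.19 to 2.28, and the narrowest that of Ttr probe 1, from -0.10 to 0.28.

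Around the members, 6 lists of genes of the thyroid hormone pathway held 84 genes, of which 71 had a probe and 67 were tested. Over all 67, 0 passed an adjusted p of 0.05 in limma, with a smallest adjusted p of 0.216. At an unadjusted p under 0.05 there were 10, 8 higher and 2 lower, or 14.9% of them, near the 15.3% of all tested genes (7.16% higher and 8.11% lower). Groups did not overlap for 17 of the 67, or 25.4%, near the 23.2% of all genes. The list genes were thus called about as often as any gene of the array, and the values of single genes below are descriptions of these 6 arrays.

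Of 11 carriers that move thyroid hormone across cell membranes, 8 were tested, 0 passed in either direction and the median log2 fold change was 0.04, against 0.01 over all genes. Slco1a4, an organic anion transporter that takes up thyroid hormones and many drugs, read 5.32, 5.76 and 5.57 in corn oil and 6.16, 6.40 and 5.89 with phenolphthalein. It was 1.51-fold higher, at a log2 fold change of 0.60 ± 0.17 (SE, n = 3 per group), the groups did not overlap, and the limma adjusted p was 0.239. Its other 2 probes had log2 fold changes of 0.60 and 0.45, with groups that overlapped. The bile acid carrier Slc10a1 had a value of 0.18 ± 0.08 and the amino acid carrier Slc7a8 one of -0.29 ± 0.15 (SE, n = 3 per group). Slco1c1 was well above background on 0 of 6 arrays and was not tested.

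Of 16 genes of conjugation and cytosolic binding, 12 were tested and 0 passed in either direction, with a median log2 fold change of 0.11 and a higher mean for 8. Ugt1a1 and Ugt1a6, enzymes of the family that glucuronidates thyroxine, had values of 0.30 ± 0.17 and 0.23 ± 0.16 (SE, n = 3 per group), and their groups overlapped. The 3 probes of Ugt1a6 ran from -0.03 to 0.27, and transcripts of this locus share exons, so the probes may not be separate measures. Among sulfotransferases, Sult1a1 was at 0.33 ± 0.10, Sult1b1, known for sulfating thyroid hormones, at 0.30 ± 0.12 and Sult1c2 at -0.35 ± 0.14 (SE, n = 3 per group), with limma adjusted p of 0.259, 0.316 and 0.332. The 3 Sult1b1 probes lay close together, from 0.27 to 0.30.

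Of 11 genes of deiodination and selenoprotein synthesis besides Dio1, 9 were tested and 0 passed in either direction, with a median of 0.08. Dio2, the deiodinase of brain and brown fat, was well above background on 0 of 6 arrays. Dio3, which inactivates thyroid hormones, read -1.90, -2.62 and -2.08 in corn oil and -2.05, -3.43 and -2.29 with phenolphthalein, and the groups overlapped. Its log2 fold change was -0.39 ± 0.40 (SE, n = 3 per group). The selenoenzyme Txnrd1, thioredoxin reductase, had a value of 0.59 ± 0.16 and a limma adjusted p of 0.23, and its 4 probes ran from 0.24 to 0.59. Sepsecs, which makes selenocysteyl-tRNA, was at 0.18 ± 0.07, and Secisbp2, which binds the selenocysteine element of selenoprotein messengers such as Dio1, at 0.20 ± 0.08 (SE, n = 3 per group).

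Of 16 receptor partners and coregulators, 10 were tested and 0 passed in either direction, with a median of -0.02. Retinoid X receptors pair with thyroid hormone receptors on DNA. Rxrg read 3.52, 3.60 and 3.58 in corn oil and 3.11, 2.89 and 3.31 with phenolphthalein, so all phenolphthalein arrays were lower. Its log2 fold change was -0.46 ± 0.12 (SE, n = 3 per group), with a limma adjusted p of 0.216, and a second probe gave -0.45. The remaining Rxrg probe, well above background on 5 of 6 arrays, gave -2.85 ± 1.88. Rxra, the main retinoid X receptor of liver, had a value of 0.29 ± 0.11 and a limma adjusted p of 0.295, and the corepressor subunit Gps2 one of -0.10 ± 0.08 (SE, n = 3 per group). The Rxra probe was dimmer than the brightest Rxrg probe, with corn oil means of -0.16 and 3.57. No probe sequence was at hand to check what either probe reads.

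Of 24 genes described as raised by thyroid hormone in rodent liver, 22 were tested and 0 passed in either direction. The median log2 fold change was 0.16, with a higher mean for 15 and a lower mean for 7, where 51.8% of all tested genes were above 0. Me1, malic enzyme, a classic thyroid hormone target, read 2.52, 4.43 and 2.56 in corn oil and 3.53, 3.53 and 3.29 with phenolphthalein. As with Thrsp, all phenolphthalein values of Me1 lay inside the corn oil range, but corn oil replicate 2 was its high array, where for Thrsp it was replicate 3. Gpd2, mitochondrial glycerol phosphate dehydrogenase, had a log2 fold change of -0.01 ± 0.32 and the transcription factor Klf9 one of 0.24 ± 0.15 (SE, n = 3 per group). The 3 with the smallest p were Ucp2, a mitochondrial carrier, at -0.69 ± 0.21, Acaca, acetyl-CoA carboxylase, at 0.34 ± 0.10, and Por, the electron donor of P450 enzymes, at 0.71 ± 0.27 (SE, n = 3 per group). Their limma adjusted p were 0.243, 0.249 and 0.304, and the second Acaca probe gave -0.07. Hr was well above background on 0 of 6 arrays.

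Of 7 plasma binding partners and near paralogs of the members, 7 were tested and 0 passed in either direction, with a median of 0.01. Rbp4, the retinol-binding protein that travels with transthyretin, was at 0.08 ± 0.07, and albumin, Alb, which also binds thyroxine, at 0.01 ± 0.07 (SE, n = 3 per group). Mid1ip1, the paralog of Thrsp, read 2.69, 2.89 and 3.28 in corn oil and 2.57, 3.36 and 2.98 with phenolphthalein, a narrower span than that of Thrsp. Its log2 fold change was 0.01 ± 0.24. Serpina6, corticosteroid-binding globulin, which belongs to the serpin family of thyroxine-binding globulin, had a value of -0.38 ± 0.17 and Apob one of 0.06 ± 0.10 (SE, n = 3 per group).

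**Figure D5:**
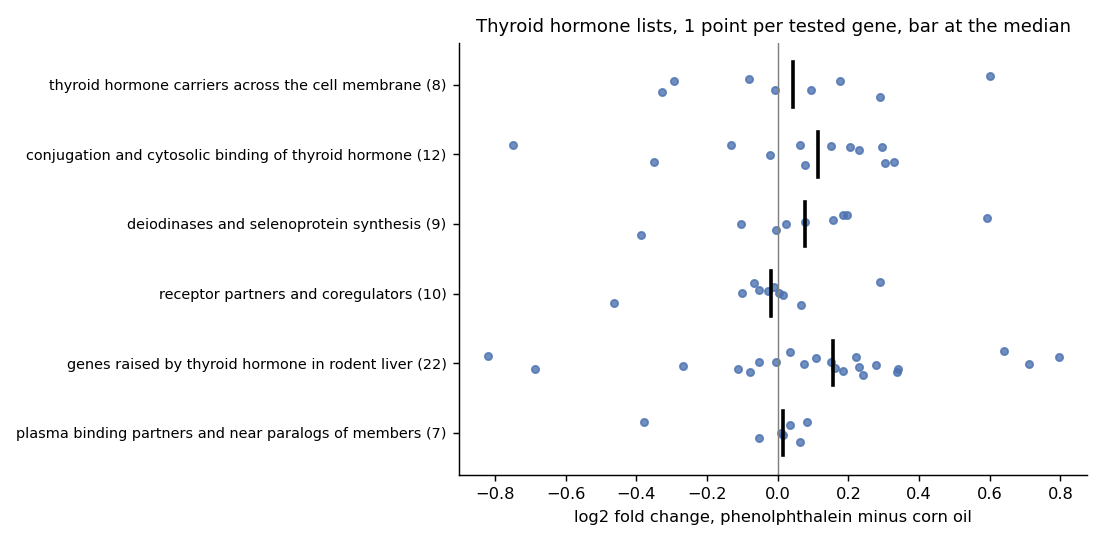
Log2 fold change, phenolphthalein minus corn oil, of every tested gene of the 6 lists (points, number of genes in brackets), with a black bar at each list's median. Medians lie between -0.02 and 0.16, and 0 of the points passed the adjusted threshold.

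The genes most like Thrsp over the 6 arrays, by Pearson's r of log2 signal, were Slc25a51, a mitochondrial carrier, at 0.99, Sfxn1, a mitochondrial serine carrier, at 0.98 and Srpx at 0.97. Slc25a51 read 1.94, 2.11 and 2.98 in corn oil and 2.47, 2.38 and 2.78 with phenolphthalein, so corn oil replicate 3 was its highest and corn oil replicate 1 its lowest array, as for Thrsp. For Dio1 they were Cdc42ep4 at 0.99, and Amotl2 and Twist1, both at 0.98. Amotl2 and Twist1 were dim, with corn oil means of -3.79 and -4.27. Cdc42ep4 read 1.60, 2.34 and 2.15 in corn oil and 2.20, 2.27 and 1.40 with phenolphthalein, with the same 2 low arrays as Dio1. Such r values rest on 6 points that share slide and label within a group, and 66 of 11425 genes had an r above 0.9 with Thrsp and 69 with Dio1.

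Of 8 markers of hepatocytes, the labelled tissue's main cell type, 8 were tested, and Ttr is 1 of them. Without Ttr the summed signal of the other 7 was 3096 to 3321 times the 75th percentile in corn oil and 3165 to 3366 with phenolphthalein. Of the markers of other liver cells, 0 passed the adjusted threshold in limma in either direction. The 7 tested Kupffer cell markers had a lower mean with phenolphthalein in 7 of 7 and an unadjusted p under 0.05 in 7, where 8.11% of all tested genes were lower at that p. Their summed signal was 116 to 162 in corn oil and 80.8 to 108 with phenolphthalein. For 5 tested lymphocyte markers the sums were 2.80 to 3.30 and 2.06 to 2.30, and for 5 stellate cell markers 12.4 to 13.5 and 9.04 to 12.3. By gene, all phenolphthalein values lay below all corn oil values for 3 of the lymphocyte markers and 1 of the stellate cell markers. Of all tested genes, 11% did so. The sum of the 3 tested bile duct markers went the other way, at 1.41 to 1.47 in corn oil and 1.64 to 1.70 with phenolphthalein. By mean, 2 of these were higher and 1, Krt19, lower. Only Epcam, at a log2 fold change of 0.29 ± 0.08 (SE, n = 3 per group), had groups that did not overlap. For 3 markers of sinusoidal endothelium the sums overlapped, at 46.6 to 47.9 and 44.3 to 47.6. Their part in the values of the members was not tested.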

How the data were processed

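Per the labels' protocols, Cy3-labelled liver RNA was run on 1-colour Agilent arrays. The deposited scanner files hold spot intensity from Agilent Feature Extraction 10.7.1.1, background-subtracted and detrended, per the file headers (10.7 per the submitters' processing notes). Set against the scanner files, the authors' deposited value table is that intensity over a constant for each array: it is linear, uncentred and runs the same way. Its column medians were 0.0984, 0.101 and 0.102 for corn oil and 0.0954, 0.0941 and 0.0959 for phenolphthalein replicates 1 to 3.

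The 75th percentile of the signal was 595 to 636 on corn oil arrays and 551 to 578 on phenolphthalein arrays. Per array, 62.1% to 65.1% of probes were well above background. The number of arrays limits the precision. Each p-value sets the group difference against the spread within groups, which limma draws toward that of the whole table. An effect of slide or scan would be part of that difference. The processed signal was taken to log2, and the 75th percentile of its array was subtracted. Marked outlier spots (4 to 14 per array) were set missing, and a probe was kept if it was well above background on 3 or more of 6 arrays. Of the probes, 27460 matched 1 gene by unversioned accession in a RefSeq table of assembly GRCr8 and 34197 matched none. The array design was annotated on rn4, so no coordinates of probes or genes are given beside the 2 RefSeq promoter windows on GRCr8. The brightest probe stood for a gene.

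Genes and, separately, all probes were fitted in limma 3.58.1 (R 4.3.3) (lmFit, then eBayes) for the difference phenolphthalein minus corn oil, with Benjamini-Hochberg adjustment over the whole table at 0.05. The fit was also run on simulated data with independent genes and no effect of slide or scan. Those data therefore cannot speak to such an effect here. The members and lists were chosen with earlier results of these data known. Named genes were the members, the 3 smallest p of each pathway list and the 3 genes most like Thrsp and Dio1. A fixed set was added (Ugt1a1, Ugt1a6, Sult1b1, Dio2, Dio3, Rxra, Me1, Gpd2, Klf9, Mid1ip1, Rbp4, Alb). Cyp2b1 and Ugt2b1 were named for their large responses and not by a stated ranking. List genes below background on all 6 arrays were named by detection alone. Some genes under this rule are not reported here.

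Alternatives were normexp (offset 50, on the median spot and background signals), quantile normalization, a median shift, no filter or all 6 arrays as filter, a trended robust prior, marked spots kept, the authors' values, the mean of a gene's probes, a block for the replicate number, and leaving out each array in turn.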

Additional observations from a re-analysis of the deposited data

How the results depend on the processing

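None of the 5 member genes passed the adjusted threshold in any of the 16 alternatives, and no gene of the 6 lists did. The other 3 member probes, Dio1 probes 2 and 3 and Ttr probe 2, were refitted in all of these but the mean of a gene's probes, and none passed. A median shift moved the median of all genes from 0.01 to 0.09. Under it the log2 fold change was 0.028 for Dio1, 0.0095 for its second probe and 0.031 for the second Ttr probe, and with normexp it was -0.027 for Thra. Thrb, at 0.07, was at 0.20 with quantile normalization and 0.15 with a median shift. Without 1 array the log2 fold change ran from -0.23 to 0.13 for Dio1, from -0.24 to 0.13 for its second probe and from -0.36 to 0.051 for Dio1 probe 3. It ran from -0.17 to 0.21 for Thrb, from -0.060 to 0.11 for Thra, from -0.028 to 1.33 for Thrsp, from 0.05 to 0.12 for Ttr and from -0.15 to 0.10 for the second Ttr probe.

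Some list medians moved. With a median shift they were 0.12 for carriers, 0.16 for deiodination, 0.060 for receptor partners, 0.094 for plasma partners, 0.19 for conjugation and 0.23 for genes raised by thyroid hormone. Receptor partners were at 0.015 with normexp and 0.0036 with the mean of probes, and deiodination at 0.16 with the latter. Plasma partners were at -0.059 with quantile normalization and carriers at -0.046 without a filter. Without 1 array deiodination ran from 0.033 to 0.15, carriers from 0.0016 to 0.073, conjugation from 0.070 to 0.15, genes raised by thyroid hormone from 0.087 to 0.23, plasma partners from -0.018 to 0.065 and receptor partners from -0.053 to -0.019.

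Over all genes, 6 were higher and 1 lower, and over all probes 18 and 1. Genes lower were 0 with normexp, quantile normalization, no filter or the trended prior and 2 with the filter on all 6 arrays. Without a filter 0 probes were higher and 0 lower, and probes lower were 2 with the filter on all 6 arrays or the trended prior. Without 1 array, genes ran from 0 to 6 higher and 0 to 0 lower, and probes from 0 to 5 higher and 0 to 1 lower. With the replicate block, 0 genes and 0 probes were higher or lower, with log2 fold changes of the members as before. Deviations of same-numbered arrays had correlations of -0.02, 0.02 and -0.003, and those of other pairs ran from -0.06 to 0.07. With so few arrays per group, such values cannot settle whether the numbers pair the animals. The cause of these changes was not tested. Limits of signal bear most on Thrb, which is close to background, and on Ttr, which is near the bright end.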

Other observations

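Of 8 markers of thyroid follicular cells, 6 were tested in this liver RNA, and 0 passed in limma. Thyroglobulin, Tg, the iodide carrier Slc5a5 and the transcription factor Nkx2-1 were dim, with corn oil means of -2.92, -4.28 and -5.09 log2 units relative to the 75th percentile. The probe named Foxe1, a transcription factor of thyroid development, was bright, with a corn oil mean of 7.42 and a log2 fold change of 0.19 ± 0.09 (SE, n = 3 per group). No probe sequence was at hand to check that this probe reads Foxe1, so its level may not be that of the gene. It was chosen for mention after its value was seen.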
